A study of Mus musculus with 16 samples.

Results

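The 4 wild-type arrays of the series were described on their own: 4 of the 16 arrays, chosen by their sample titles, each carrying hippocampal RNA of wild-type males aged 2 months. The strain label reads C56/BL6 and is the same for all groups. The other 12 arrays carry RNA of equally old males labelled APP-/- (APP_KO, 4 arrays), APLP2-/- (APLP2_KO, 4 arrays) and APP-/-; APLP2-/- (N_dCKO, 4 arrays), the last being the conditional knockout of both genes in neurons that the series title names. The labels do not say whether arrays 1 to 4 are separate animals, so the spread between them may be partly technical, and they do not name the promoter of the Cre recombinase. No level of a knockout group was compared with wild type. The other groups serve once, to ask whether genes that were uneven between wild-type arrays were uneven within those groups too.

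The hippocampus is the part of the cortex that holds the granule neurons of the dentate gyrus and the pyramidal neurons of fields CA3, CA2 and CA1, joined in a loop that stores new memories. Interneurons that release GABA, astrocytes, myelinating oligodendrocytes, microglia and vessels make up the rest of the tissue. The choroid plexus and the leptomeninges, the membranes that wrap the brain, lie against it and can come along in a dissection. In whole tissue, fewer cells of a type and less RNA per cell cannot be told apart.

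Each value is a microarray signal, a brightness on a linear scale that every array shares after scaling by the authors to one trimmed mean. A gene was read from its brightest probe set (a set of short oligonucleotides matching 1 transcript), which gave 18193 genes. A gene counted as above the reference level when its mean signal passed 33.9, the 95th percentile of 129 probe sets for olfactory, vomeronasal and taste receptors and keratin-associated proteins, and 13713 genes (75.4%) did. Brightness also depends on the probes: 6605 genes had more than 1 probe set above that level, and the brightest and the dimmest of these lay a median of 2.05 apart on the log2 scale. Ranks below therefore order signals, not numbers of RNA molecules.

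The 4 arrays were alike in quality. The median signal over all probe sets lay between 79.7 and 91.7, the 3'/5' signal ratio of Gapdh between 0.752 and 0.786, and the correlation of any pair of arrays across genes above the reference level between 0.986 and 0.988, where genes are not independent replicates. A pair of arrays differed by over 2-fold at 195 to 257 of these genes (1.42% to 1.87%). The Y-linked genes Eif2s3y, at 1563 ± 91.2 (mean ± SD, n = 4, as throughout), and Kdm5d, at 535 ± 31.1, were above the reference level. Xist, which silences an X chromosome in females, gave 57.1 ± 6.47, which was dim but also above that level of 33.9. Of the marker genes of hippocampal cell types that were measured, Erbb4, Maml2 and Anpep were below the reference level and the rest above it. Of 8 measured lymphocyte genes 7 were below, against 24.6% of all genes.

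The brightest signals came from myelin, energy supply, protein synthesis, the cytoskeleton and synapses. Mbp, a structural protein of the myelin sheath, ranked first, with signals of 27558, 31283, 30917 and 29027 on arrays 1 to 4. Ttr, the thyroxine carrier secreted by the choroid plexus, ranked second at 26344, 27999, 33519 and 29013. Both genes had several probe sets near the top: 5 of the 8 for Mbp had means between 22469 and 29696, and the 4 for Ttr lay between 24375 and 29219. ND5, a subunit of respiratory complex I encoded by mitochondrial DNA, gave 27576, 29677, 30992 and 26425. The ribosomal protein gene Rps29 gave 25788, 29318, 28859 and 29549, and Tmsb4x, which binds actin monomers, 25696, 28234, 30439.5 and 28650.5. The ranges over the 4 arrays overlapped between these 5 genes. Array 1 was the lowest for 4 of them, against 26.5% of all genes above the reference level, and array 4 for ND5. Array 1 also had the lowest maximum signal (29153). Which array was lowest in some bright lists depended on the scaling, as described below.

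Ranks 6 to 30 were held by genes of a few roles. Membrane and synaptic genes included Atp1b1, a subunit of the sodium pump (27784 ± 2534), Gpm6a, a neuronal membrane glycoprotein (26509 ± 718), Snap25, a SNARE protein of vesicle fusion (22983 ± 799), and Basp1, a growth cone protein (22134 ± 1429.9). Tuba1a, an alpha-tubulin, gave 23953 ± 909, Actg1, a cytoplasmic actin, 21723 ± 1509, Pfn2, a profilin of neurons, 23508 ± 1249.5, Dynll1, a dynein light chain, 22223 ± 1639, and Stmn3, a stathmin that binds tubulin, 22114 ± 1799. Protein synthesis and folding were represented by Eef1a1, the elongation factor (26037 ± 1754), Rpl38, a ribosomal protein (21646 ± 1182), and Hspa8, the constitutive heat shock cognate (25922 ± 2438). Cox6a1 of complex IV gave 22634 ± 1588, and Uqcrb of complex III 22478 ± 946. Secreted or processed proteins were Cpe, which trims neuropeptide precursors (24148 ± 1121), Cst3, the cysteine protease inhibitor cystatin C (21316 ± 1533), Itm2b (21733 ± 1228) and the prion protein gene Prnp (21122 ± 1309). The remaining genes were Fth1, the ferritin heavy chain, Ywhab, Tpt1, Nsmf, Ndrg4, Fbxl16 and Ppp2r1a, whose means ran from 21107 to 25754.

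The order within the top 30 was not resolved by 4 arrays. Of the 29 pairs of neighbours in the ranking, 0 kept 1 order on all 4 arrays. Membership was steadier: 24 of the 30 genes were in the top 30 of every array, no member ranked lower than 34 on any array, and 84 of the top 100 were in the top 100 of every array. Rank 30, Ppp2r1a, had a mean of 21107 and rank 31, the astrocyte glutamate transporter Slc1a2, 20938. The probe type bears on this ranking. Of the 30 genes, 9 were read from probe sets marked x_at, whose probes can match other transcripts too, against 3.66% of all genes. Nsmf, among these 9, had a mean of 22255, while its next probe set gave 1658. Mbp and Ttr, also among the 9, had several probe sets near the top. The 100 brightest genes held 9.75% to 10.6% of the summed signal of all genes on an array, and the 500 brightest 30.1% to 31.5%. With the median over a gene's probe sets in place of the brightest, 58 of the top 100 stayed in the top 100.

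**Figure D1:**
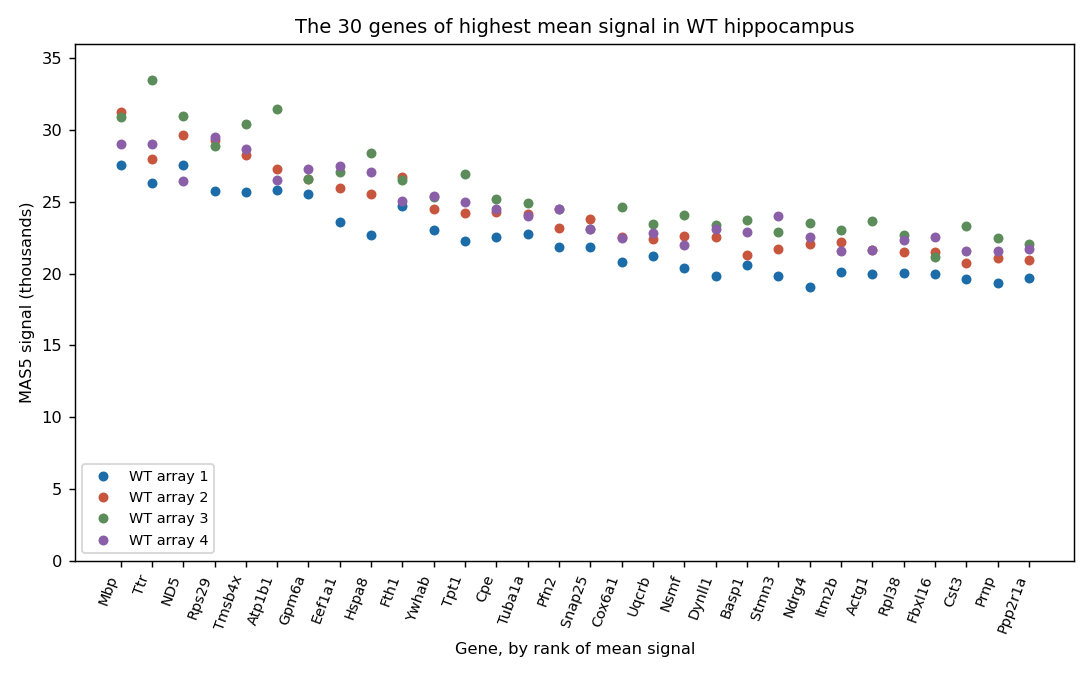
Signal (linear axis from 0, in units of 1000) of the 30 genes of highest mean signal, 1 point for each of the 4 wild-type arrays, genes in order of mean signal from Mbp (29696) to Ppp2r1a (21107). The points of neighbouring genes overlap. Array 1 lies at the bottom for most of these 30 genes, against 26.5% of all genes above the reference level.

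Gene groups separated by signal. Their place is given as the median percentile of their measured members among the 18193 genes, where the 500 brightest genes are the top 2.75%, with the share of the summed signal of all genes for the largest lists. The cytoskeleton of neurons stood at percentile 99.2 (15 of 21 genes among the 500 brightest), and calmodulin and calcium signalling at 99.1 (12 of 17). Cytosolic ribosomal proteins stood at 98.5, with 30 of 45 in the top 500 and 2.19% ± 0.04 of the summed signal. Subunits of oxidative phosphorylation stood at 97.8, with 42 of 76 in the top 500 and 3.62% ± 0.08 of the signal. The presynaptic vesicle cycle stood at 97.8 (11 of 17), glycolysis at 97.3 (7 of 13) and the postsynaptic density at 85.5 (1 of 13). Ribosomal genes were not uniformly bright, with 45 members spanning nearly the whole range of signals. Rpl39l, Rpl3l and Rps16 were below the reference level, and Rps27 gave 240.2 ± 103. Whether the probes or the amount of RNA made these signals low was not tested.

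Among cells of the hippocampus, oligodendrocyte and myelin genes had the highest median percentile, 95.8, ahead of astrocytes at 92.0 and excitatory neurons at 91.6. Behind Mbp came Cnp, an enzyme of myelin membranes (16354 ± 1482), Mobp (14731 ± 2191) and Mal (11141 ± 1999.8), both proteins of compact myelin. The brightest astrocyte genes were Slc1a2 (20938 ± 770.4), the glycolytic enzyme Aldoc (16918 ± 1268) and the gap junction gene Gja1 (11270.0 ± 209). Camk2a, the kinase of synaptic plasticity, led the excitatory neurons at 13319.9 ± 2428, followed by the vesicle protein Sv2b at 9431 ± 444. The field lists followed the same way: CA1 markers stood at 88.7, led by Ccn3 (7866 ± 486) and Wfs1 (2857 ± 439.9), CA2 and CA3 markers at 70.6, led by Pcp4 (9551 ± 2117), and dentate granule markers at 67.0, led by Calb1, a calcium buffer (6789 ± 122), and C1ql3 (5791 ± 360.3). Prox1, the transcription factor of granule neurons, gave 606 ± 75.9. These percentiles depend on which genes are listed and on their probes, and do not measure how many cells of each kind there were.

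Interneuron genes stood at 84.4. Gad1, which makes GABA, gave 13049 ± 275, and the neuropeptides Cck and Sst gave 8347 ± 543 and 6320.5 ± 668. Genes of oligodendrocyte precursors stood at 74.8, led by Olig1 (7707 ± 479), and microglia at 68.6, led by the growth factor receptor Csf1r (5275 ± 129) and the protease Ctss (2602 ± 152). Endothelial genes stood at 57.1, with Itm2a (6624 ± 454) and the glucose transporter Slc2a1 (4489.9 ± 578) on top, and mural cells at 49.6, led by Rgs5 (5637 ± 497). Newborn neurons and dividing cells stood at 45.4. Dcx, a microtubule protein of young neurons, gave 571 ± 98.3, and Mki67, a marker of dividing cells, 104 ± 31.0.

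Genes of neighbouring tissue reached from well above to below the reference level, which 75.4% of all 18193 genes passed. Genes of neocortical layers stood at percentile 65.5, all 11 above it, led by the transcriptional corepressor gene Tle4 (2692 ± 122.5). Choroid plexus genes stood at percentile 60.0 with all 14 above it, but behind Ttr the next, Sostdc1, gave 1155 ± 339.6. Leptomeningeal and fibroblast genes stood at 58.6, all 13 above, led by Ptgds, the prostaglandin D synthase (12477 ± 4928), and the matrix proteoglycan gene Dcn (2657 ± 255). Thalamus and habenula genes stood at 58.3, led by Slc17a6, the glutamate transporter of subcortical neurons (1005 ± 140.4), and striatal genes at 49.3, led by the phosphodiesterase Pde10a (1974 ± 450.2). Ependymal genes stood at 47.0. Hormone genes of the hypothalamus and pituitary stood at 27.3, with Gh, Prl, Trh and Cga below the reference level and Oxt at 233 ± 34.8. Blood cell genes stood at 26.6, with 4 of 7 above, among them Alas2 of haem synthesis (173 ± 42.3). The hippocampus itself expresses part of these lists, and the part of adhering tissue in them was not tested.

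**Figure D2:**
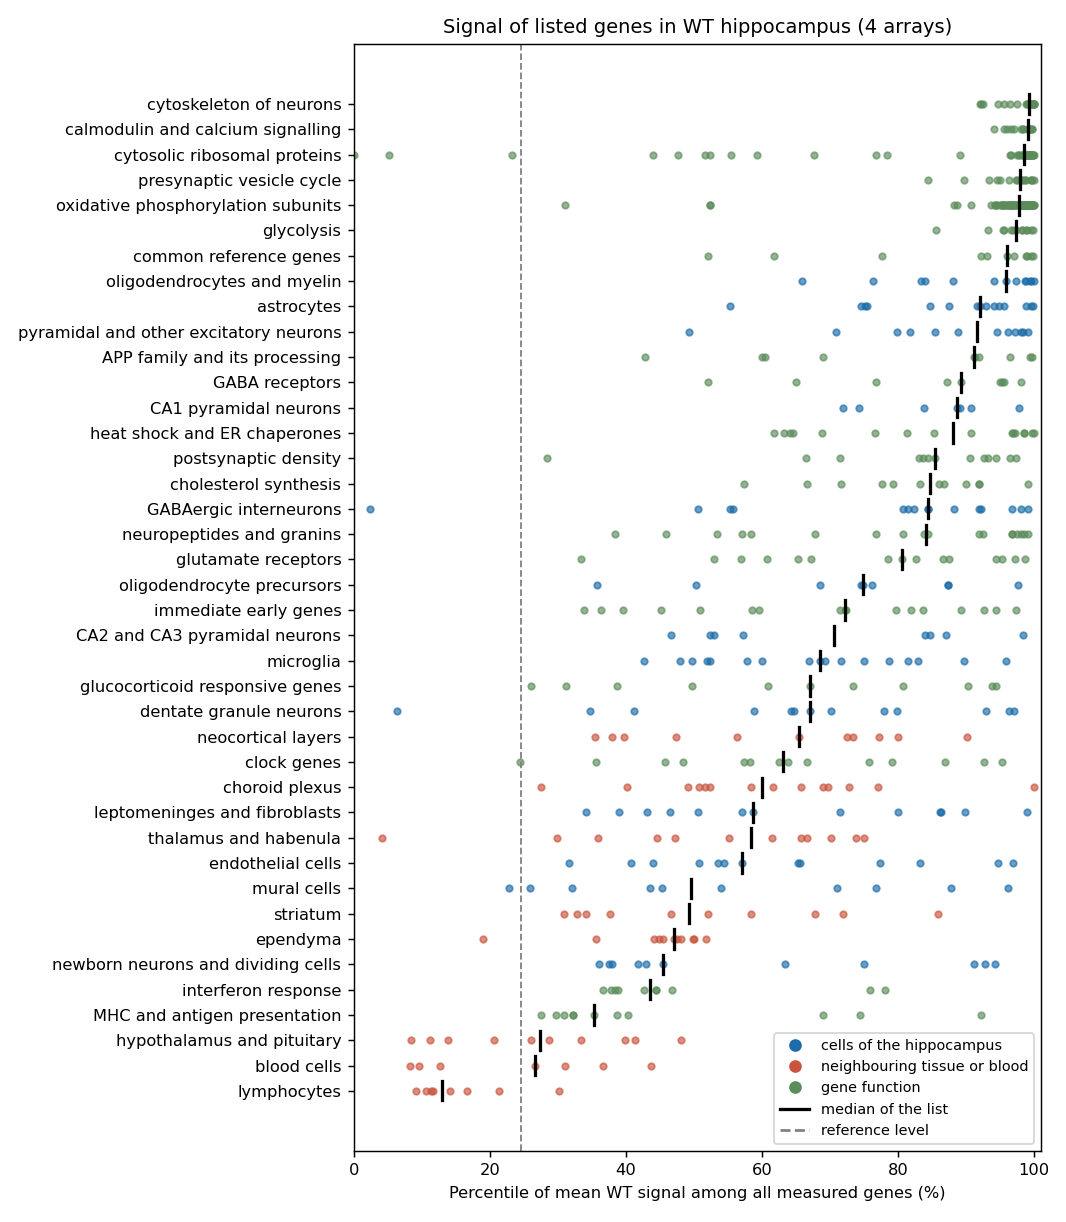
Percentile of mean wild-type signal among 18193 genes for each member of the gene lists (points), with the median of each list (black bar) and the reference level (dashed line). Cytoskeletal, calcium signalling and ribosomal genes lie at the top, and lymphocyte genes, with a median at percentile 12.9, at the bottom.

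The APP family was bright. App, the amyloid precursor protein gene, ranked 52nd with signals of 17314, 18142, 19940.4 and 18599.6 on arrays 1 to 4. Its relative Aplp1 ranked 115th at 13578, 14791, 15868 and 15100.2, and Aplp2 ranked 638th at 6186, 5857, 6168 and 5725. Each gene varied about as much as genes of like signal: dividing the SD of log2 signal by the running median SD of genes of like mean (below, the spread ratio, where 1 is the median gene) gave 1.07, 1.17 and 0.702. Of the genes that process APP, the beta-secretase Bace1 gave 3174 ± 135, the alpha-secretase Adam10 2948 ± 259, and the gamma-secretase subunits Psen2 and Ncstn 481 ± 53.0 and 158 ± 34.7. The 10 measured genes of this list had a median spread ratio of 1.06, and 0 reached 2, against 7.17% of all genes above the reference level. With 10 genes, a count of 0 is near that share.

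Between the 4 arrays a typical gene varied little. The median SD of log2(signal + 9) over genes above the reference level was 0.141, and the median coefficient of variation of the signal was 9.97%. The SD fell with signal, from a median of 0.286 in the dimmest of 4 equal bins of genes to 0.0889 in the brightest, which is why the spread ratio was used. By that ratio 983 genes (7.17%) spread at least 2 times as much as genes of like signal, and 165 at least 3 times. On the linear scale the highest array exceeded the lowest by 2-fold or more at 1039 genes (7.58%). The ratio chose the genes described next, so their spread is a description and carries no test. The last of the 30 highest ratios was 4.27 (Usp53), and the next below was 4.24 (Kl).

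**Figure D3:**
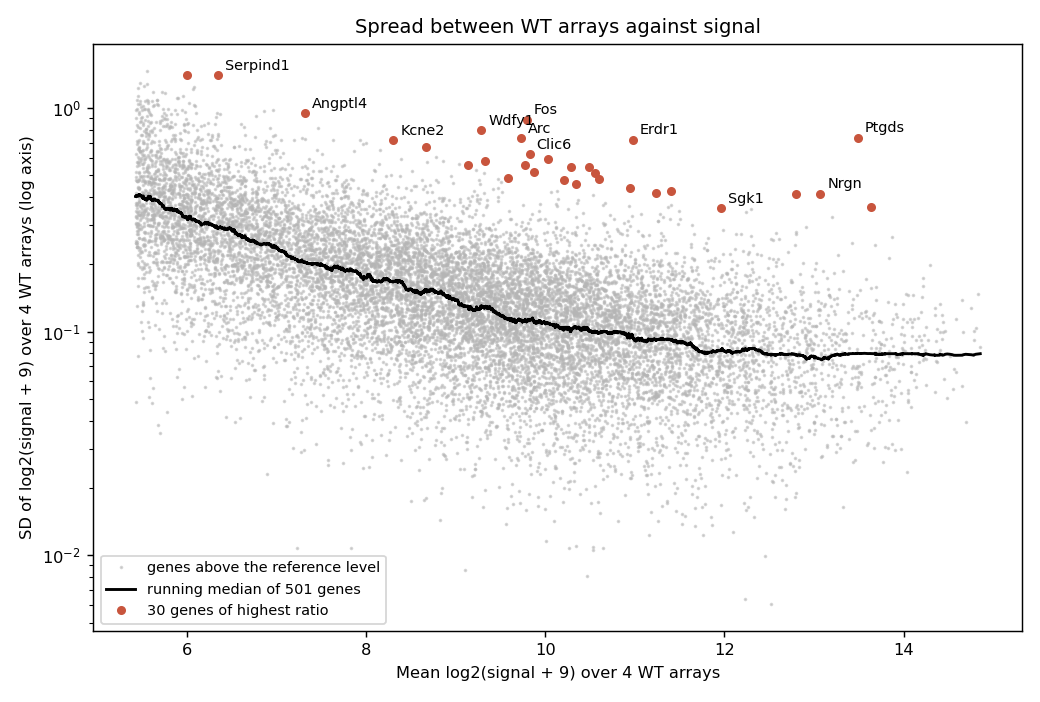
SD of log2(signal + 9) over the 4 wild-type arrays (log axis) against the mean, for 13713 genes above the reference level, with the running median over 501 genes (line) and the 30 genes of highest spread ratio in red. Ptgds stands 9.21 times above the line and Fos 8.0 times.

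Ptgds, which makes prostaglandin D and is secreted by leptomeningeal cells, choroid plexus and oligodendrocytes, spread most. Its signals on arrays 1 to 4 were 15577, 12778, 5420.4 and 16134, and its second probe set gave 10426, 6990.1, 2164 and 9103. Array 3 was the low one by both, and without array 3 the spread ratio fell from 9.21 to 2.38. Other leptomeningeal genes were among the 30 as well. Fmod, a collagen-binding proteoglycan, gave 713, 366, 224 and 418, with array 1 highest on all 6 of its probe sets. Igfbp2, a carrier of insulin-like growth factors, gave 2216, 2632, 1281 and 2001. Mgp, an inhibitor of calcification made by vessel and fibroblast cells, was in no list and gave 2092, 1113, 1189.7 and 2019.9, high on arrays 1 and 4. Over the 13 leptomeningeal and fibroblast genes the median ratio was 2.89. Array 1 was highest for 9 of them and array 3 lowest for 7, against 25.7% and 20.5% of all genes above the reference level. Under median centring array 4 was highest for 7 and array 1 for 5, against 54.4% and 13.1% of all genes. Array 3 was then lowest for 9, against 27.1%.

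Choroid plexus genes had the highest median ratio of the 38 lists with at least 5 members above the reference level, 3.85 over 14 genes. Array 2 was highest for 12 of the 14 and array 3 lowest for 10, against 21.8% and 20.5% of all genes, and quantile normalization of the arrays left both counts as they were. Clic6, an intracellular chloride channel protein, gave 1094, 1490.2, 573 and 689. Kcne2, a potassium channel subunit, gave 284, 638, 199 and 242. Kl, the klotho gene, gave 598, 814, 324 and 444. In all of these array 2 was highest and array 3 lowest, and the folate receptor gene Folr1, at 920.3, 1060.2, 583 and 526, differed only in that array 4 was lowest. Ecrg4, a secreted precursor protein also known from the choroid plexus, was in no list and gave 2907, 3867, 1899 and 2509, with array 2 highest and array 3 lowest on all 3 of its probe sets. Ttr did not follow these genes. Its brightest probe set was highest on array 3, its other probe sets disagreed on the highest array, and all of them gave at least 22621 on every array, in the same range as the brightest signals of each array (maximum 29153 to 34766).

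Myelin genes had a median ratio of 2.35 over 13 genes. Array 2 was highest for 12, against 21.8% of all genes. Arrays 1 and 4 were each lowest for 6, against 26.5% and 24.9%. Under quantile normalization they were lowest for 3 and 8, against 27.6% and 20.8%. Under median centring they were lowest for 8 and 3, against 39.7% and 9.32%. Ermn, a cytoskeletal protein of myelinating cells, gave 1454, 2274, 1696 and 1229. Mal gave 10252, 13927, 11101 and 9285. Gsn, the actin-severing gelsolin, gave 6669.7, 8907, 6998 and 5964. Each was highest on array 2 and lowest on array 4, as was Mog, a protein of the outer myelin surface, at 2310.3, 2894, 2217 and 1829. The gap was smaller at the brightest probe set of Mbp, with a ratio of 1.07 and signals near the highest of each array. A dimmer probe set of Mbp gave 11506, 14774.5, 12522 and 11020, highest on array 2 and lowest on array 4. Of the 7 other probe sets of Mbp above the reference level, 2 were highest on array 2. Array 2 was thus the highest for choroid plexus, myelin and, as described next, immediate early genes together. Each array was also centred on its median log2 signal, which lies up to 0.18 apart between arrays. Array 2 was then still highest for 11 of 13 myelin genes, against 17.9% of all genes, but the median ratio was 1.64.

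Immediate early genes are switched on within minutes of neuronal activity or stress, without new protein synthesis. Many of their promoters bind the factor CREB at a short site, TGACGTCA, or its shorter form TGACG, and some bind serum response factor at a CArG box. Promoters of 3 members, chosen after their values were seen to show different numbers of TGACG, are given here, from RefSeq on build GRCm38.p6 as the 300 bases from 250 before to 50 after the transcription start, with TGACG on either strand (CGTCA on the other strand), the whole site and TATAAA in capitals. They are Fos at chr12:85473640-85473939 on the plus strand, Nr4a1 at chr15:101266596-101266895 on the plus strand and Dusp1 at chr17:26508423-26508722 on the minus strand.
Fos: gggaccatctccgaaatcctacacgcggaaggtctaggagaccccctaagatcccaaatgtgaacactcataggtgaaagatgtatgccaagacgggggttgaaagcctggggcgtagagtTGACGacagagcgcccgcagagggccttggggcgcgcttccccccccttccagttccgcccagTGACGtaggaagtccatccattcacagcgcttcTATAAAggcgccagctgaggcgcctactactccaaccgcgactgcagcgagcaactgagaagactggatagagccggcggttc
Nr4a1: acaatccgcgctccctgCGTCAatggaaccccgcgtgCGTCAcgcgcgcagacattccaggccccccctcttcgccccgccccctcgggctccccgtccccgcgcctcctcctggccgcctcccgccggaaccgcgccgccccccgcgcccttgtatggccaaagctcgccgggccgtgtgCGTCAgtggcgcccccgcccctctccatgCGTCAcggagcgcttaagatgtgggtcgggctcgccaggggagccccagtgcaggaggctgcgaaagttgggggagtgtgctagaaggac
Dusp1: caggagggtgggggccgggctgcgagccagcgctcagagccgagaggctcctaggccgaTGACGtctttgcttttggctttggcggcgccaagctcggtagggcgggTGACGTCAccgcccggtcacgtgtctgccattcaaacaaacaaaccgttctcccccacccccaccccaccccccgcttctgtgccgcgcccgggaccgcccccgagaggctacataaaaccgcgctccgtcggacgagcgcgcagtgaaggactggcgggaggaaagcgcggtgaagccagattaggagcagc
Fos holds TGACG 2 times, Nr4a1 holds it 4 times, and Dusp1 3 times, of which 2 overlap in 1 whole site. Of the 17 immediate early genes 13 were matched, with 18 promoter windows, some of them overlapping windows of 1 gene. Arc, Egr1 and Egr3 were among the unmatched genes. TGACG lay in 13 of the 18 windows (72.2%), against 20.8% of 32851 promoters of the same length. TGACGTCA lay in 2 (11.1% against 1.79%), TATAAA in 2 (11.1% against 13.6%) and the CArG box in 4, all of Egr2 (22.2% against 1.63%). Counted by gene, TGACG lay in 11 of the 13, TGACGTCA and TATAAA in 2 each, and the CArG box in 1. These are matches of letters, and binding was not measured.

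The 17 immediate early genes had a median spread ratio of 2.35, and array 2 was highest for 16 of them and array 1 lowest for 11, against 21.8% and 26.5% of all genes. Fos, a subunit of the AP-1 transcription factor, gave 507, 1981, 578 and 1012 on arrays 1 to 4. Arc, a synaptic protein that drives the removal of AMPA receptors, gave 442, 1552, 817 and 871. The nuclear receptor gene Nr4a1 gave 1139.8, 2170.0, 1246 and 1538, and array 2 was the high one for all 3 genes. The zinc finger factor gene Egr1 gave 5650.1, 9064, 6906 and 7236, and its relative Egr3 gave 4322, 5049.6, 3655 and 4371. Dusp6, a phosphatase of MAP kinases, gave 2037, 2850.1, 2531 and 2666. Array 2 stood above the other 3 arrays for Fos, Arc, Nr4a1, Egr1, Egr3 and Dusp6, while Homer1, a scaffold of the postsynapse, was highest on array 3 (3209, 3324, 3756 and 3457). With array 2 left out the median ratio was 1.58, and under median centring it was 1.98.

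Genes that respond to glucocorticoids, the stress hormones, ran the other way between arrays 1 and 2. Their median ratio was 1.82, below the 2 that the lists above passed, and 9 of 11 were highest on array 1 and 8 lowest on array 2, against 25.7% and 28.1% of all genes. Sgk1, a kinase that regulates ion channels, gave 5624, 3986, 3177 and 3531. Sult1a1, a sulfotransferase, gave 1058, 553, 623 and 569.8. The cell cycle inhibitor gene Cdkn1a gave 748, 345, 437 and 519. For these 3 genes array 1 stood clear of the others, and for Nfkbia, the inhibitor of NF-kappaB, array 4 came close to it (4992, 3779.6, 3867 and 4799). Fkbp5, a chaperone of the glucocorticoid receptor, was also highest there but spread less (1613, 1305, 1423 and 1204). Angptl4, a secreted lipase inhibitor outside the list, gave 258, 51.6, 195 and 183, lowest on array 2. Without array 1 the median ratio of the list was 1.39.

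**Figure D4:**
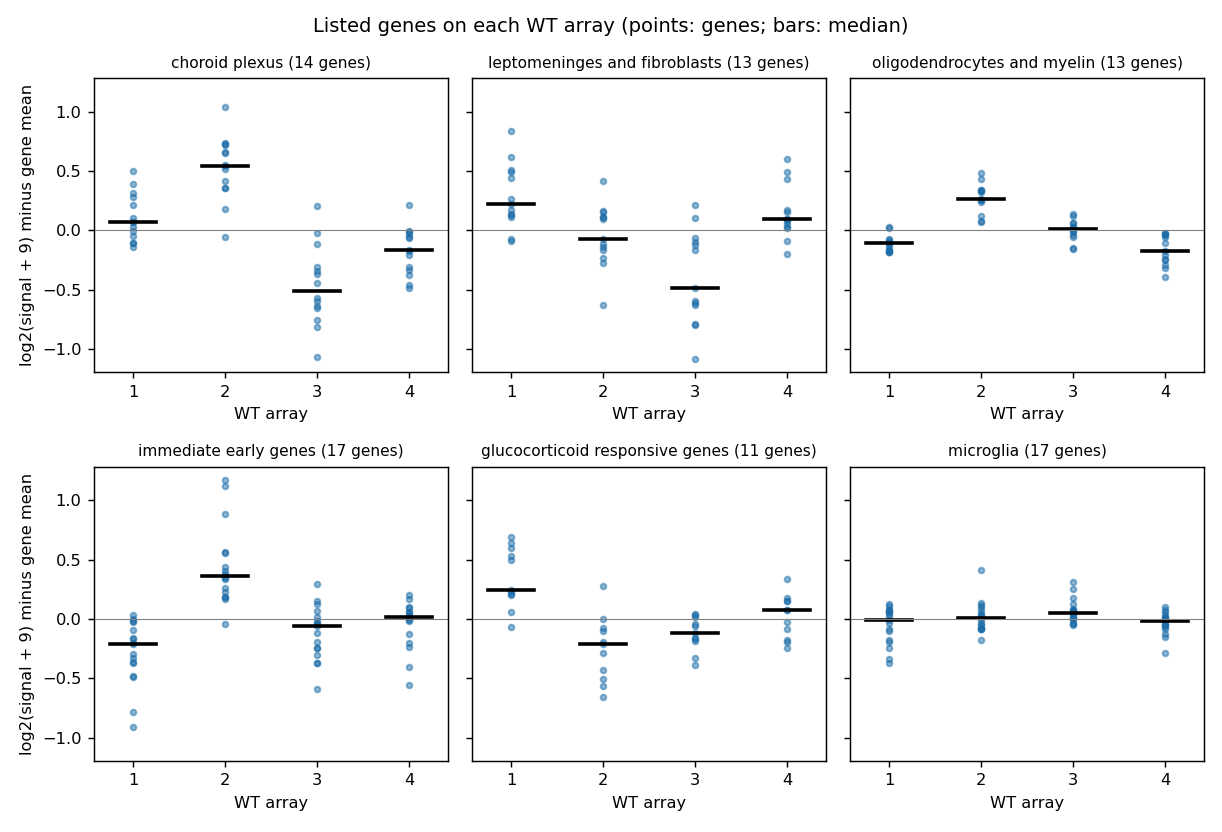
Log2(signal + 9) minus the gene's mean on each of the 4 wild-type arrays, for the members of 6 lists above the reference level (points) and their median (bar). Choroid plexus, myelin and immediate early genes are highest on array 2, and leptomeningeal and glucocorticoid responsive genes on array 1. Under median centring array 4 is highest for 7 of 13 leptomeningeal genes, against 54.4% of all genes. The 17 microglia genes (median spread ratio 0.87) differ little.

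Chaperone genes were highest on array 2 in 11 of 16 cases, against 21.8% of all genes, with a median ratio of 1.53. Hspa1b, an inducible heat shock protein, stood out with 1756, 2186, 1099 and 982, and its 2 other probe sets were highest on array 2 and lowest on array 4 too. Xbp1, a transcription factor of the unfolded protein response, gave 5989, 7945, 6853 and 6991. Interferon response genes were highest on array 1 in 6 of 10 cases and on array 2 in 4, against 25.7% and 21.8% of all genes. Array 4 was lowest for 8, against 24.9%, and for 4 under quantile normalization, against 20.8%. Rsad2, an antiviral enzyme, gave 165, 259, 149 and 89.6, and Ifit3 262, 189.5, 134 and 149.9. Clock genes had a median ratio of 1.0, but Cry1, a repressor of the clock, gave 287, 395, 115 and 230.4, lowest on array 3.

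Housekeeping groups shifted together by small amounts that depended on the scaling. Array 1 was lowest for 51 of 76 oxidative phosphorylation subunits, 24 of 42 ribosomal protein genes and 18 of 21 cytoskeletal genes. Over all genes above the reference level that share was 26.5%. Under quantile normalization the counts were 26, 3 and 10 against 27.6% of all genes, so the arrangement did not hold for the oxidative phosphorylation or the ribosomal genes. Under median centring they were 62, 32 and 20 against 39.7%. Median centring also made array 4 the highest for 54.4% of all genes, against 24.8% in the deposited scaling. Within oxidative phosphorylation Atp5md, a small subunit of ATP synthase, and Ndufs8, a subunit of complex I, had the highest spread ratios. Atp5md gave 13039, 14818, 8881 and 15409.7, low on array 3, and Ndufs8 gave 7324, 6834, 6657 and 10350.4, high on array 4. Their spread ratios were 4.54 and 3.86, against a list median of 0.90. Of 5 other probe sets of Ndufs8 above the reference level, 1 was also highest on array 4 and 0 were lowest on array 3.

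Median ratios of neuronal lists ran from 0.77 to 1.40. They were 0.77 for CA1 pyramidal neurons, 1.04 for excitatory neurons, 1.05 for dentate granule neurons and 0.97 for glutamate receptors. Postsynaptic density genes had 1.24, GABAergic interneuron genes 1.23, neuropeptide and granin genes 1.23, presynaptic vesicle genes 1.30 and genes of the neuronal cytoskeleton 1.40. The list of calmodulin and calcium signalling had a median of 0.93, but some of its members lay far above it. Nrgn, or neurogranin, which holds calmodulin at the postsynapse, gave 7001, 6499, 10121 and 11819, and Pcp4, another small calmodulin-binding protein, gave 7455, 8007, 11224 and 11517. Arrays 3 and 4 were above arrays 1 and 2 for both. Camk2a differed, being highest on array 3 alone at 12268, 12446, 16924 and 11641. The AMPA receptor subunit genes Gria1 and Gria2 had ratios of 0.324 and 0.828. Cplx2, a complexin that clamps vesicle fusion, gave 6693, 6966, 4970.5 and 5033, with arrays 1 and 2 above arrays 3 and 4.

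Several of the 30 genes of highest ratio belonged to no list. Wdfy1, an adaptor of endosomal receptor signalling, split the arrays into pairs: 1012, 351, 407 and 969. Its next 2 probe sets by brightness gave 606, 248, 192 and 602, and 219.7, 96.1, 62.3 and 161, again with arrays 1 and 4 above arrays 2 and 3. Erdr1 gave 2302, 2657, 2755 and 948 and was low on array 4, as was its dimmer probe set. Tmem267 gave 1559, 1284, 2396 and 1035 from its only probe set. The labels used here name 1 strain for all arrays and give no breeding history, and the cause of the split values of Wdfy1 and Tmem267 was not tested. Other genes were uneven on 1 probe set and far less so on the next. Wdr48, a cofactor of deubiquitinases, gave 1448, 1513, 704 and 742 on its brightest probe set and 737, 715, 847 and 821 on the next, and Ube2d2a, a ubiquitin-conjugating enzyme, 6929, 7545, 4968 and 9974 on its brightest probe set and 3904, 3811, 4031 and 4074 on the next. Necab1, a neuronal calcium-binding protein, gave 1033, 984, 1051 and 2186, and without array 4 its ratio was 0.46. Its dimmer probe set gave 59.9, 125, 89.7 and 43.8, lowest on array 4. Serpind1 (155, 106, 10.2 and 111) and 2010109A12Rik (7.62, 143, 51.1 and 102) were dim, and a single array fell below the reference level at each. Over the 100 genes of highest ratio, 55 had a further probe set above the reference level, 105 in all, and 48.6% of these had the same highest array as the brightest one, against 30.5% over all genes.

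The most even genes were spread over many functions. Adk, the adenosine kinase, gave 5848, 5893, 5889.9 and 5849. Ndufa5, a complex I subunit, gave 4761, 4799.7, 4806 and 4803. Both were bright, while Fcgr1, an immunoglobulin receptor, was even at a low signal of 139.5, 141, 142 and 139.9. Cpne2, a copine, gave 543, 536, 542 and 544, and Tesk2, a kinase, 218, 219, 222 and 218. The SD of the signal of these 5 genes was 0.419% to 0.792% of the mean. Genes often used as references were not among the 20 most even. Actb, the cytoplasmic beta-actin gene, gave 18829, 20899, 23326 and 20491 with a ratio of 1.61. Rplp0, a ribosomal stalk protein, was steadier at 11275, 11536, 11928 and 12339.6, with a ratio of 0.711. Ywhaz, a 14-3-3 protein, gave 15218, 17071, 15489 and 19010.5 with a ratio of 1.85. The transferrin receptor gene Tfrc was the least even of the list at 3210.2, 2983, 3986 and 4410.5, with a ratio of 3.28.

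The other 12 arrays were then used to see whether uneven genes were uneven within a group again. They took no part in choosing the genes, and only the spread within each group of 4 was read. Of the 100 genes with the highest ratio in wild type, 67 had a ratio of 2 or more within APP_KO, 60 within APLP2_KO and 55 within N_dCKO, against 7.45%, 7.19% and 7.22% of all genes above the reference level. In all 3 groups at once it was 30 of 100, against 0.773%. The 100 most even genes of wild type had median ratios of 0.769, 0.924 and 1.01 in APP_KO, APLP2_KO and N_dCKO. The 20 most even had 0.847, 1.02 and 0.949 in the same order, near the 1 of the median gene.

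**Figure D5:**
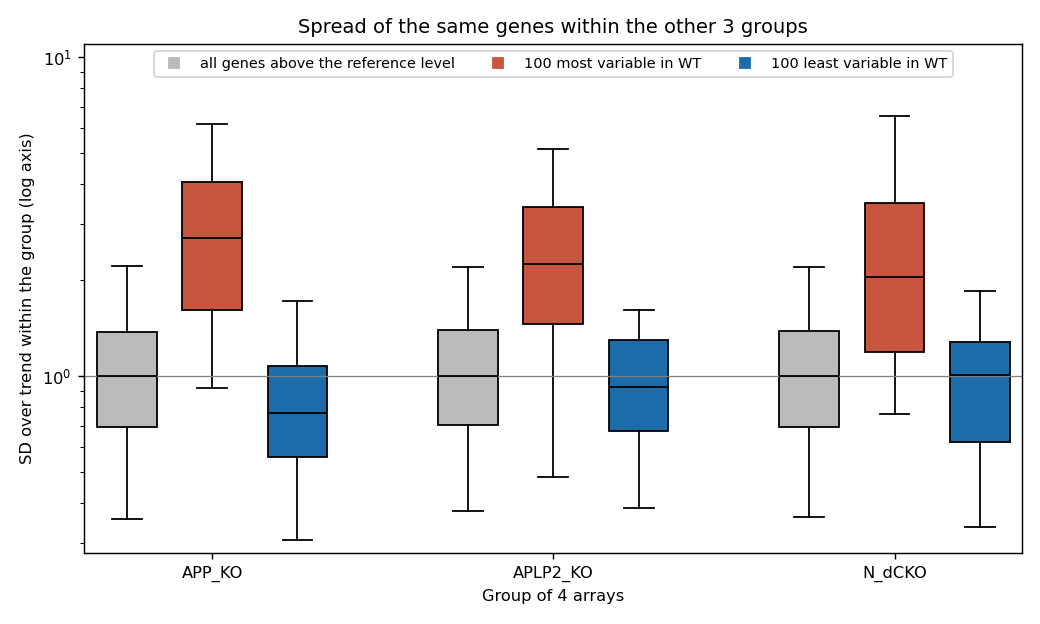
Spread ratio (log axis) within each of the other 3 groups of 4 arrays, for all 13713 genes (grey), the 100 genes of highest ratio in wild type (red) and the 100 of lowest (blue). Boxes span the quartiles with the median, and whiskers run from the 5th to the 95th percentile. The red medians are 2.72, 2.25 and 2.04, and the blue ones 0.769, 0.924 and 1.01.

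The 13 of the 30 leading genes that reached a ratio of 2 in all 3 other groups were Ptgds, Fos, Erdr1, Arc, Clic6, Nrgn, Tmem267, Mgp, Bcar1, Angptl4, Ecrg4, Atp5md and Sgk1. Within N_dCKO the highest array stood far above the rest for Clic6 (18.0, 34.1, 38.8 and 399) and Ecrg4 (107, 157, 176 and 1271). Fos ran from 595 to 3219 within APP_KO, from 894 to 1666 within APLP2_KO and from 784 to 2955 within N_dCKO. Nrgn ran from 6758 to 11254, from 6912 to 10356 and from 6984 to 9281 in the same order of groups. Tmem267 had the highest ratio of the 30 in 2 groups: its signals were 80.4, 624, 1042 and 1541 within APLP2_KO and 86.2, 94.1, 906 and 1689 within N_dCKO, in rising order, so that 1 array of the first group and 2 of the second lay at or below 94.1 while the rest lay at or above 624. Within APP_KO it ran from 812 to 1302. Wdfy1 ran from 960.3 to 1518 within APLP2_KO, with a ratio of 3.03. It ran from 299 to 409 within APP_KO and from 911 to 1050.2 within N_dCKO, with ratios of 1.10 and 0.915, close to genes of like signal.

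By list, median ratios within the other groups also lay above 2 for some of the uneven lists. Choroid plexus genes had 2.86 in APP_KO, 1.75 in APLP2_KO and 2.96 in N_dCKO. Leptomeningeal genes had 2.10, 3.26 and 2.03 in the same order, immediate early genes 2.84, 1.21 and 2.95, myelin genes 4.06, 1.46 and 1.84, and glucocorticoid responsive genes 2.23, 1.87 and 2.57. Microglia genes had 0.88, 1.0 and 1.06. Of the uneven lists of wild type, only the leptomeningeal one thus had a median of 2 or more in every group. Differences between groups in these medians were not tested.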

How the data were processed

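The deposited table holds MAS5 intensity values for 45101 probe sets on each of 16 arrays, 1 column per array. The submitters' processing notes name MAS5 without a version, and per the labels' protocols Trizol total RNA was made into biotinylated cRNA. In the deposited table every array has the same mean intensity of 500 after trimming 2% at each end, so a shift shared by most genes is removed. A trimmed mean does not align the medians.

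The 64 control probe sets were left out. Of the probe sets, 34945 are paired with 1 gene symbol in the platform annotation, 932 with several, which were not used, and 9211 are unnamed here. Each gene was read from its brightest probe set, as log2(signal + 9), where 9 is about 10% of the median signal. The spread ratio is the SD over 4 arrays divided by the running median SD of 501 genes of like mean. Spread detection was checked on simulated data. The number of arrays limits the precision, and no test was run, since 1 group was described.

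The genes named come from a rule: the 30 of highest signal, the 30 of highest and 20 of lowest ratio, up to 4 of each list by signal and by ratio, the APP family, reference genes, calmodulins and tubulins and sex-linked genes. Gapdh (an array check), Dusp1 and Egr2 (promoters) and list members below the reference level fall outside it and were chosen after their values were seen. The members and the lists were chosen with earlier results of these data known. Alternatives were another scaling, another probe set choice, reference level, pseudocount or spread measure, and leaving out each array. Python 3.11.15, pandas 2.3.3, numpy 2.4.6 and matplotlib 3.10.9 were used.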

Additional observations from a re-analysis of the deposited data

Results flagged for a closer look

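Of 140 genes named, 5 had 1 array farther from the other 3 than Dixon's 95% limit for 4 values, and chance marks about 5% of genes. Over all genes above the reference level 5.24% passed that limit. The array named is the outlying one. Necab1 gave 2186 on array 4, where its dimmer probe set was lowest, and Mki67 gave 57.5 on array 1. Erdr1 gave 948 on array 4, Serpind1 10.2 on array 3 and Ndufa5, one of the most even genes, 4761 on array 1. Of the 38 gene lists and 6 quality measures looked at in the same way, 0 passed the limit.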

How the results depend on the processing

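No paired analysis was possible because 1 group was described and no groups were compared. The number of genes above the reference level stayed within 1.5 times of 13713 under every alternative run, from 10468 to 13865. With the median over a gene's probe sets, 58 of the 100 brightest genes and 45 of the 100 of highest spread ratio were shared with the main setting, and ranking by an SD not divided by the trend shared 11. The median SD was 0.164 with median centring, 0.162 with the median over probe sets, 0.118 with the 99th percentile as reference level, 0.126 with the median of all probe sets, 0.181 with no filter and 0.132 with 4 times the pseudocount. Of the 4 lists with a median ratio of 2 or more, 2 remained above it with median centring. Leaving out 1 array gave a median SD of 0.128 to 0.134, 60 to 70 shared genes of highest ratio and 2 to 5 such lists, with 2 when array 2 was left out. The cause was not tested. The median ratio was 2.55 for choroid plexus and 1.55 for myelin without array 2, and 1.81 for leptomeninges without array 3. Of the 30 genes of highest ratio, 22 kept a ratio of 2 or more without any 1 array. The other 8 fell below it: Necab1 (0.46) and Erdr1 (1.58) without array 4, Spock3 (0.46), Serpind1 (1.36) and Atp5md (1.63) without array 3, Angptl4 (1.42) and Kcne2 (1.48) without array 2, and Iftap (0.53) without array 1. Depth here is signal over background, which limits the dimmest genes most.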
